A study of Homo sapiens with 6 samples.

Results

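The genes described here carry peptides to MHC class I molecules: PSMB8, PSMB9, PSMB10, TAP1, TAP2, TAPBP, ERAP1, ERAP2, B2M and NLRC5. They were chosen by name, as genes whose known roles lie in class I antigen processing, and each is read through the array row that carries its symbol alone and has the highest mean over all arrays. Rows were found for 10 of 10 of them, among 22411 genes with a row of their own, and 10 of 10 passed the filter on dim rows that kept 14376 of those genes. RNA came from U87MG, a human glioblastoma cell line. All cells carried a lentiviral short hairpin RNA and had been grown for 5 days after drug selection ended: sh50 cells and sh52 cells carried hairpins from clones whose stated names give no target, and shGFP cells, the control, carried a hairpin named for green fluorescent protein. Each of the 3 groups had 2 arrays, replicate 1 and replicate 2, so 6 arrays were read in all. The series title names SAT1, the enzyme that acetylates spermidine and spermine, and the comparisons ask what differs between each hairpin and the control.

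Cells cut their own proteins into peptides with the proteasome, and the TAP transporter moves those peptides into the endoplasmic reticulum. There aminopeptidases trim them and a loading complex fits them to class I molecules, each a heavy chain paired with beta-2-microglobulin, which show them to CD8 T cells at the surface. Interferon gamma raises most genes of this route, and NLRC5 acts as a transactivator of class I genes.

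Promoter sequence is shown for TAPBP, ERAP2 and B2M, the 3 members for which all hairpin arrays stood above both controls (values below). Each stretch is the 100 bases before a RefSeq start in GRCh38.p14, 5′ to 3′ along the gene, and ERAP2 has 2 listed starts.
TAPBP, chr6:33314079-33314178, minus strand: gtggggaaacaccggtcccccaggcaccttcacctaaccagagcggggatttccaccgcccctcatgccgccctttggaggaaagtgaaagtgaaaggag
ERAP2 first start, chr5:96875884-96875983, plus strand: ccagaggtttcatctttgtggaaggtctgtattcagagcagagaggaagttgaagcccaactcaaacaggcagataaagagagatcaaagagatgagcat
ERAP2 second start, chr5:96876400-96876499, plus strand: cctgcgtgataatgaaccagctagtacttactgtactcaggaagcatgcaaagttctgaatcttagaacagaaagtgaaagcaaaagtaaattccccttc
B2M, chr15:44711417-44711516, plus strand: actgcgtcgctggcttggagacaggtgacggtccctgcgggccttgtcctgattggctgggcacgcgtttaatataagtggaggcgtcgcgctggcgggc
These stretches held 60% G and C in TAPBP, 44% and 40% at the ERAP2 starts and 64% in B2M. Windows of 9 of the 10 genes were used here, not that of NLRC5, and the median G and C share of the same 100 bases was 60% over the members' 13 windows and 60% over all 35116.

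TAP1 and PSMB9 lie side by side on chromosome 6 and are read in opposite directions. Their RefSeq starts in GRCh38.p14 have 487 bases between them, and windows from 250 bases before to 50 bases after each start share 13 bases.

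SAT1 did not follow the hairpin groups. It stood at 9.36 and 8.35 (log2 expression value, replicate 1 then 2, as in every pair of values below) on the sh50 arrays, at 10.83 and 7.84 on the arrays labelled sh52, and at 9.45 and 8.96 on the shGFP arrays. The array labelled sh52 replicate 1 held the highest SAT1 of the 6 and sh52 replicate 2 the lowest. Some results resting on sh52, though not all, are therefore also given with the array labelled sh52 replicate 1 left out. The array medians over all features lay between 3.98 and 4.12. Over 33764 transcripts tested with limma and Benjamini-Hochberg adjustment, 0 passed an adjusted p of 0.05 with either hairpin, with the mean of both, or between the hairpins (0% called in each), while 9.19% had an unadjusted p under 0.05 for the mean of both hairpins against shGFP. No difference between hairpin and control below passed the adjusted test, and folds hold if the deposited logarithm has base 2, which the sources used here do not state.

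The members are taken by role, from the proteasome to the regulator, and the plot of the 10 genes by array shows every value.

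**Figure D1:**
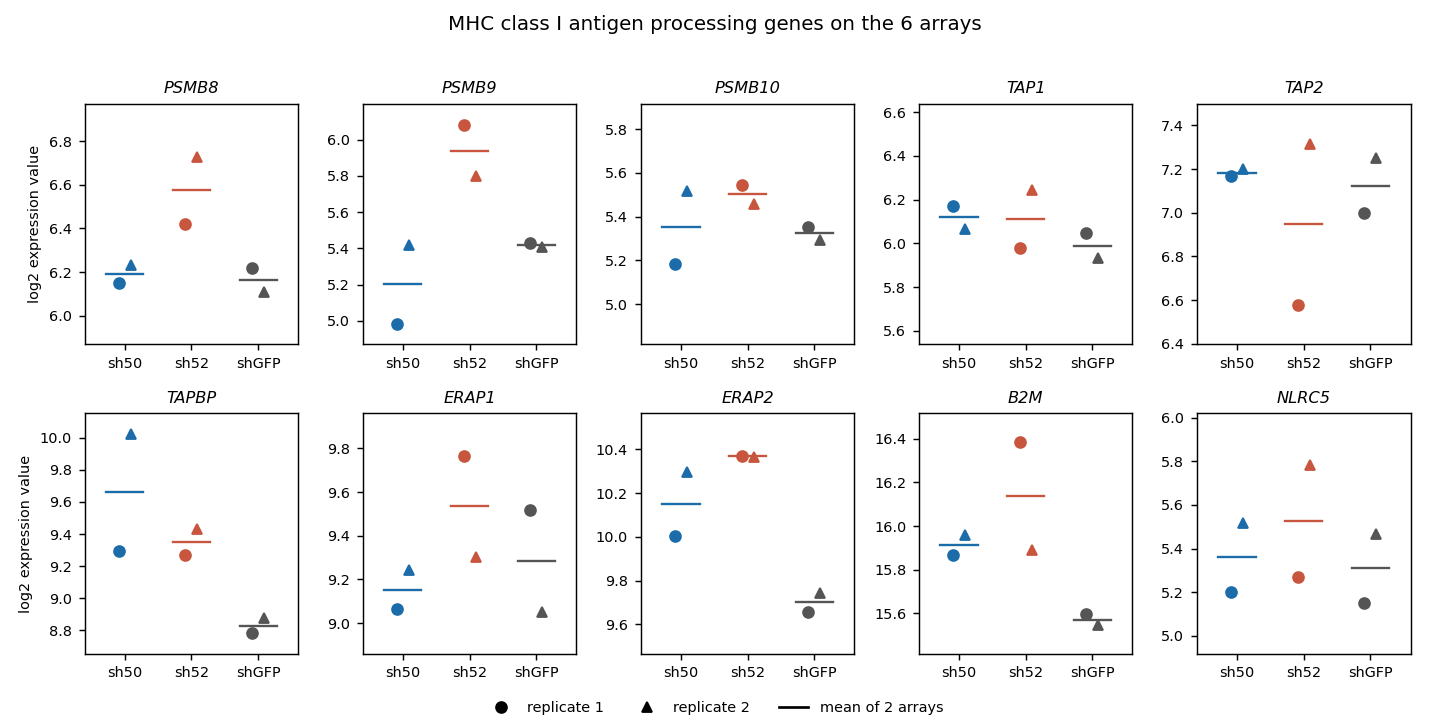
Log2 expression value (vertical axis, its own range in each panel) of the 10 genes in sh50, sh52 and shGFP cells; circles are replicate 1, triangles replicate 2 and short lines the mean of 2 arrays. For TAPBP, ERAP2 and B2M each of the 4 hairpin arrays is above both shGFP arrays, as for 8.98% of all transcripts. PSMB8, PSMB9 and PSMB10 lie above the controls on both sh52 arrays, as 20.2% of transcripts do. The other 4 genes overlap the controls with sh52.

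The 3 inducible proteasome subunits stood higher than the controls on both sh52 arrays and overlapped them on the sh50 arrays, though no difference passed the adjusted test. Of all transcripts, 20.2% had both sh52 arrays above both controls. PSMB8, PSMB9 and PSMB10 replace the standard catalytic subunits PSMB5, PSMB6 and PSMB7 to form the immunoproteasome, which favours peptides with ends that class I molecules bind. PSMB9 read 4.99 and 5.42 in sh50 cells, 6.08 and 5.80 in sh52 cells, and 5.43 and 5.41 in shGFP cells. Both sh52 arrays were above all 4 others, sh50 replicate 1 was the lowest, and sh50 replicate 2 lay between the controls. The sh52 difference from shGFP was 0.52 ± 0.21 (log2, SE of the fit), or 1.43-fold (adjusted p = 0.569). That of sh50 was -0.21, with a 95% interval of -0.74 to 0.31 and an adjusted p of 0.896.

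PSMB9 was also the one member with an unadjusted p under 0.05 between the hairpins. Its sh52 level exceeded its sh50 level by 0.74 ± 0.21 (log2, SE), a 95% interval of 0.21 to 1.26 and 1.67-fold, with an adjusted p of 0.719. Without the array labelled sh52 replicate 1 the gap between the hairpins was 0.59 and the sh52 gap to shGFP 0.38, so the direction did not rest on that array.

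PSMB8 read 6.15 and 6.23 in sh50 cells, 6.42 and 6.73 in sh52 cells, and 6.22 and 6.11 in shGFP cells. Both sh52 arrays lay above the other 4 and sh50 overlapped the controls. For sh52 the difference from shGFP was 0.41 ± 0.17 (log2, SE; 1.33-fold; adjusted p = 0.582). For sh50 it was 0.03 with an interval of -0.40 to 0.46 (adjusted p = 0.993). Over the 8 array rows of PSMB8, 7 of them on alternate haplotypes, the sh52 difference ran from 0.30 to 0.41. The row used here gave the widest. With this gene replicate 2, not replicate 1, held the higher sh52 value.

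PSMB10 read 5.18 and 5.52 in sh50 cells, 5.55 and 5.46 in sh52 cells, and 5.35 and 5.29 in shGFP cells. The sh50 arrays lay on either side of the controls, and the sh52 arrays just above them. The sh52 difference from shGFP was 0.18, with an interval of -0.26 to 0.62 (adjusted p = 0.808). Its sh50 difference was 0.03.

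The standard subunits that these replace did not separate sh52 from the controls. Against shGFP, the sh52 differences were -0.02 for PSMB5, -0.18 for PSMB6 and -0.26 for PSMB7 (log2; adjusted p of 0.992, 0.931 and 0.785), and the sh52 arrays overlapped the controls for each. PSMB5 and PSMB6 are named for their roles. Of all 14 subunits of the standard core, 3 stood higher and 11 lower with the mean of both hairpins, with a median difference of -0.05 and 0 called. Both sh52 arrays lay above both controls for 5 of the 14, beside 20.2% of transcripts. They lay above both sh50 arrays for 7, PSMB7 among them, beside 17.3% of transcripts. PSMA6, an outer-ring subunit, differed by 0.39 with both hairpins (adjusted p = 0.653), with all 4 hairpin arrays above both controls, and by 0.62 with sh52 (adjusted p = 0.568). Its sh52 arrays read 12.40 and 11.71, so the sh52 value leaned on the array labelled sh52 replicate 1. PSMB4 differed by 0.17 with both hairpins and by 0.29 with sh52, where both arrays lay above both controls (adjusted p of 0.788 and 0.659). PSMB7 differed by -0.39 with both hairpins and by -0.53 with sh50, where both arrays lay below both controls (adjusted p of 0.625 and 0.63). The shares of standard and inducible subunits were not compared, because levels of different probes cannot be set against each other.

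The transporter TAP1 and TAP2, a pair of half-transporters that work as a dimer, differed little between groups. TAP1 read 6.17 and 6.07 in sh50 cells, 5.98 and 6.24 in sh52 cells, and 6.05 and 5.93 in shGFP cells. Both sh50 arrays stood above the controls by a narrow margin, while the sh52 arrays overlapped them. With the mean of both hairpins the difference from shGFP was 0.12, with an interval of -0.24 to 0.49 (adjusted p = 0.873).

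TAP2 read 7.17 and 7.20 in sh50 cells, 6.58 and 7.32 in sh52 cells, and 7.00 and 7.25 in shGFP cells. The array labelled sh52 replicate 1 was the lowest of the 6 and sh52 replicate 2 the highest. The mean of both hairpins differed from shGFP by -0.06, with an interval of -0.64 to 0.53 (adjusted p = 0.971). Without the array labelled sh52 replicate 1 this difference was 0.13, of the opposite sign. TAP2 was the only member whose level was lower with the mean of both hairpins.

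TAPBP, or tapasin, which bridges the TAP transporter to class I molecules waiting for a peptide, had the largest difference of the 10 genes with the mean of both hairpins. It read 9.30 and 10.02 in sh50 cells, 9.27 and 9.43 in sh52 cells, and 8.78 and 8.88 in shGFP cells. Each of the 4 hairpin arrays exceeded both controls, and sh50 replicate 2 was highest. Group means were 9.66 ± 0.51 in sh50 cells, 9.35 ± 0.11 in sh52 cells and 8.83 ± 0.06 in shGFP cells (log2, SD, n = 2 each).

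Against shGFP, TAPBP differed by 0.67 ± 0.23 (log2, SE) with the mean of both hairpins, a 95% interval of 0.11 to 1.24 and 1.60-fold (adjusted p = 0.501). By hairpin the difference was 0.83 ± 0.26 with sh50 (1.78-fold, adjusted p = 0.537) and 0.52 ± 0.26 with sh52 (1.43-fold, adjusted p = 0.632). The sh50 value leaned on 1 array: without sh50 replicate 2 it was 0.47. All 5 array rows of TAPBP, 4 of them on alternate haplotypes of the MHC region, separated the 4 hairpin arrays from the controls, with differences between 0.65 and 0.69. These rows read the same gene, so they are not separate measurements.

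The aminopeptidases ERAP1 and ERAP2, which trim the front ends of peptides in the endoplasmic reticulum, differed in whether the groups overlapped. ERAP2 read 10.003 and 10.30 in sh50 cells, 10.37 and 10.37 in sh52 cells, and 9.66 and 9.74 in shGFP cells. All 4 hairpin arrays stood above both controls. The difference with the mean of both hairpins was 0.56 ± 0.15 (log2, SE), an interval of 0.19 to 0.92 and 1.47-fold; its adjusted p of 0.469 was the smallest of the 10 genes in that comparison.

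By hairpin, ERAP2 differed from shGFP by 0.45 ± 0.17 with sh50 (adjusted p = 0.585) and by 0.67 ± 0.17 with sh52 (1.59-fold; adjusted p = 0.501). Without the array labelled sh52 replicate 1 the sh52 difference was again 0.67. The hairpins differed from each other by 0.22, with an interval of -0.20 to 0.64.

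ERAP1 read 9.06 and 9.24 in sh50 cells, 9.77 and 9.30 in sh52 cells, and 9.52 and 9.05 in shGFP cells. The control arrays differed from each other by more than the group means did, and each hairpin overlapped the controls. The mean of both hairpins differed from shGFP by 0.06, with an interval of -0.47 to 0.59 (adjusted p = 0.966), and by -0.06 without the array labelled sh52 replicate 1.

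B2M, the light chain of every class I molecule, stood higher on all 4 hairpin arrays than on both controls. It read 15.87 and 15.96 in sh50 cells, 16.39 and 15.89 in sh52 cells, and 15.60 and 15.55 in shGFP cells, so the control arrays lay close together and the array labelled sh52 replicate 1 was highest. Group means were 15.91 ± 0.07 in sh50 cells, 16.14 ± 0.35 in sh52 cells and 15.57 ± 0.04 in shGFP cells (log2, SD, n = 2 each). With the mean of both hairpins the difference was 0.45 ± 0.18 (log2, SE), an interval of 0.01 to 0.90 and 1.37-fold (adjusted p = 0.536).

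The difference for B2M was 0.34 with sh50 (adjusted p = 0.774) and 0.57 ± 0.21 with sh52 (adjusted p = 0.541). Leaving out the array labelled sh52 replicate 1 brought the sh52 difference to 0.32 and that of both hairpins to 0.33. B2M read no higher than 16.39, where the highest value of any feature was 19.9. Whether the B2M probes were close to saturation was not tested.

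NLRC5 differed little by hairpin. It read 5.20 and 5.52 in sh50 cells, 5.27 and 5.78 in sh52 cells, and 5.15 and 5.46 in shGFP cells. In each group replicate 2 was the higher array, and the groups overlapped. The mean of both hairpins differed from shGFP by 0.14, with an interval of -0.40 to 0.67 (adjusted p = 0.916).

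**Figure D2:**
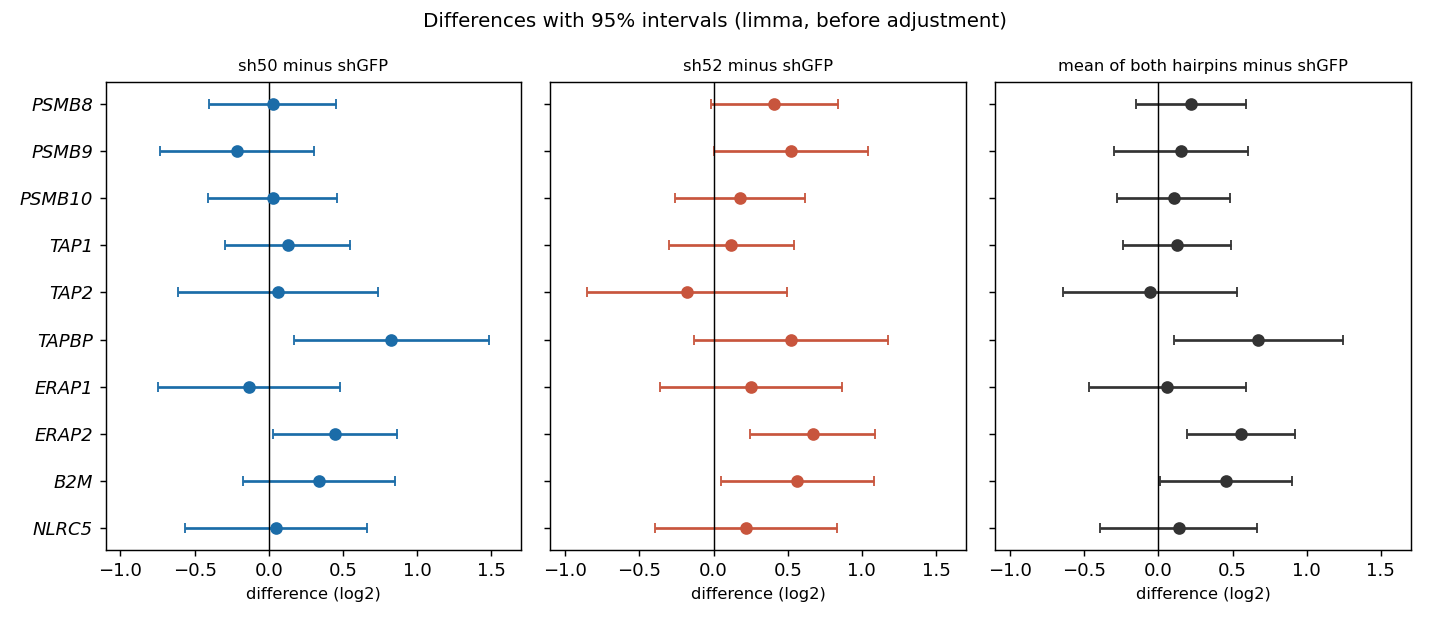
Difference in log2 expression value between sh50 and shGFP, sh52 and shGFP, and the mean of both hairpins and shGFP (panels) for the 10 genes (rows); points are estimates and bars 95% intervals of the limma fit before adjustment for many transcripts. With both hairpins the intervals of TAPBP, ERAP2 and B2M lie above 0 and the other 7 include it; adjusted p-values of the 10 run upward of 0.469.

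Counted together, 9 of the 10 genes stood higher and 1 lower with the mean of both hairpins than with shGFP, while 49.2% of all transcripts stood higher. The median difference over the members was 0.14 (log2), beside -0.0045 over all transcripts, and between 0.10 and 0.23 with 1 array left out. It was 0.23 without sh50 replicate 1, without the array labelled sh52 replicate 1 or without shGFP replicate 1. The 4 hairpin arrays lay wholly above the 2 controls for 3 of 10 members (TAPBP, ERAP2, B2M) and for 8.98% of all transcripts; the count was 5 without sh50 replicate 1, beside 14.8% of transcripts, and 6 without shGFP replicate 1, beside 17.2%. Those 3 were also the members with an unadjusted p under 0.05, as 4.35% of transcripts had in that direction. As these genes are known to be regulated together, the 10 are not independent of one another.

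By hairpin, 8 members stood higher and 2 lower with sh50 than with shGFP, beside 47.8% of all transcripts higher. Both sh50 arrays lay above both controls for 4 members (B2M, TAP1, TAPBP, ERAP2) and 18.4% of transcripts, and 7 members did so without sh50 replicate 1, beside 39.3% of transcripts. The sh50 median difference was 0.06, against -0.0125 over all transcripts. It was 0.13 without sh50 replicate 1, 0.02 without sh50 replicate 2, 0.09 without shGFP replicate 1 and 0.13 without shGFP replicate 2. With sh52, 9 members stood higher and 1 lower, beside 50.1% of transcripts, and both arrays lay above both controls for 6 members (B2M, TAPBP, PSMB8, PSMB9, PSMB10, ERAP2) and 20.2% of transcripts. The sh52 median difference was 0.33, beside 0.00073 over all transcripts, and 0.35 without the array labelled sh52 replicate 1. Both comparisons use the same control arrays. An unadjusted p under 0.05 was reached by 2 members with sh50 (TAPBP, ERAP2; 4.06% of transcripts in that direction) and 2 with sh52 (B2M, ERAP2; 4.27%).

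Between the hairpins, 7 members stood higher and 3 lower with sh52 than with sh50 (52.1% of transcripts higher), with a median difference of 0.19. Both sh52 arrays lay above both sh50 arrays for 4 members, PSMB8, PSMB9, ERAP1 and ERAP2, and for 17.3% of transcripts; the count was 7 without sh50 replicate 2, beside 38.7% of transcripts, and 7 without the array labelled sh52 replicate 1, beside 31.6%. By array, 5 members were highest on sh52 replicate 1, 4 on sh52 replicate 2 and 1 on sh50 replicate 2. None was highest on a control array, and 7 were lowest on one. The share of all transcripts with these orders was not counted, and 4 of the 6 arrays were hairpin arrays. Over all features the array labelled sh52 replicate 1 also had the highest median, 4.12. Set against the control of the same number, all 4 hairpin arrays stood higher for B2M, TAPBP, ERAP2 and NLRC5. With the numbers set aside, NLRC5 overlapped the controls. The numbers are not known to pair the samples, and the share of all transcripts was not counted here either.

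The heavy chains that B2M pairs with were measured for HLA-B, HLA-C, HLA-E, HLA-F and HLA-G. These genes have near-identical stretches, so probes may read more than 1 of them. All 5 stood higher with the mean of both hairpins, by a median of 0.66 (log2), and 4 of 5 had all hairpin arrays above both controls, as 8.98% of all transcripts did. HLA-B read 10.59 and 10.66 in sh50 cells, 11.71 and 10.70 in sh52 cells, and 10.21 and 9.76 in shGFP cells. Its difference with both hairpins was 0.93 ± 0.31 (log2, SE; 1.90-fold; adjusted p = 0.499).

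HLA-C differed by 0.78 (adjusted p = 0.53) and HLA-F by 0.66 (adjusted p = 0.545). All 5 heavy chains were highest on the array labelled sh52 replicate 1. With sh52 alone their median difference from shGFP was 0.92, and 0.52 without that array, when 4 of 5 still stood above the controls on all arrays with both hairpins (12.4% of transcripts) and 5 of 5 with sh52 (32.7%). The sh50 arrays gave a median of 0.40. B2M was highest on that array too, and TAP2 was lowest on it.

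**Figure D3:**
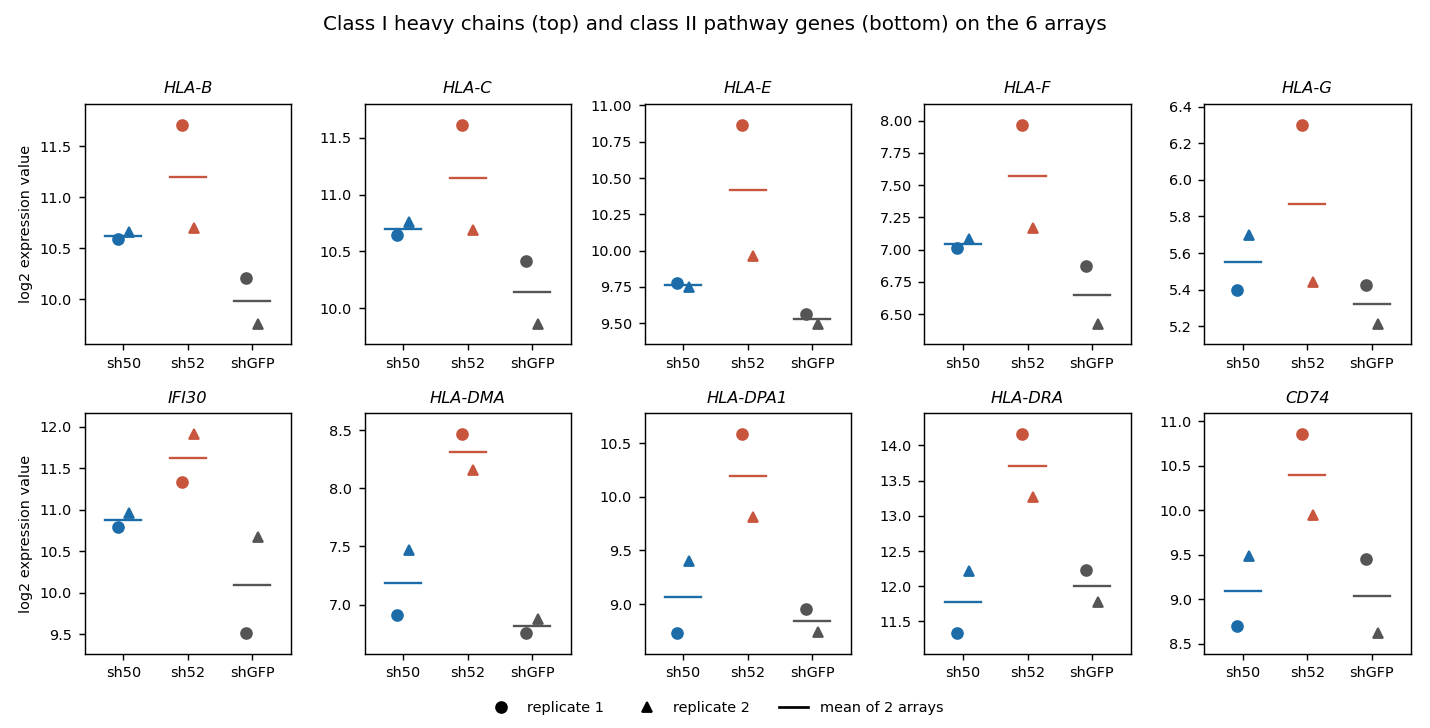
Log2 expression value (vertical axis, its own range in each panel) of 5 class I heavy chain genes (top row) and 5 genes of the class II route (bottom row) in sh50, sh52 and shGFP cells; circles are replicate 1, triangles replicate 2 and short lines the mean of 2 arrays. The heavy chains are highest on the array labelled sh52 replicate 1. IFI30, HLA-DMA, HLA-DPA1, HLA-DRA and CD74 are higher on both sh52 arrays than on the other 4.

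The class II route, by which cells show peptides from taken-up material to CD4 T cells, was set beside the members because interferon gamma raises it too. Its genes stood higher on average in sh52 cells than in sh50 or shGFP cells. The arrays of CTSS, named after its values were seen, overlapped. It read 8.01 and 7.08 in sh50 cells, 9.32 and 7.91 in sh52 cells, and 8.70 and 7.79 in shGFP cells. With sh52, 10 of 10 stood higher than shGFP and 9 had both arrays above both controls, beside 20.2% of transcripts, with a median difference of 1.20, or 0.85 without the array labelled sh52 replicate 1. With sh50, 4 stood higher and 6 lower, with a median of -0.03. Both sh50 arrays lay above both controls for HLA-DMA and IFI30, beside 18.4% of transcripts. Between the hairpins 10 of 10 were higher with sh52, by a median of 1.09, and 8 of 10 had an unadjusted p under 0.05, beside 2.96% of transcripts in that direction; none passed the adjusted test.

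HLA-DMA, part of the exchanger that loads class II molecules, read 6.91 and 7.47 in sh50 cells, 8.46 and 8.16 in sh52 cells, and 6.76 and 6.87 in shGFP cells. Its sh52 difference from shGFP was 1.497 ± 0.24 (log2, SE; 2.82-fold; adjusted p = 0.501). HLA-DRA, the class II alpha chain, read 11.34 and 12.22 in sh50 cells, 14.16 and 13.27 in sh52 cells, and 12.24 and 11.78 in shGFP cells. Its sh52 difference was 1.71 ± 0.42 (3.27-fold, adjusted p = 0.501), while its sh50 arrays lay around the controls.

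CD74, the invariant chain, differed by 1.36 with sh52 (adjusted p = 0.527) and by 0.06 with sh50. HLA-DRA and CD74 were named after their values were seen. IFI30, a lysosomal thiol reductase, differed by 1.16 ± 0.36 with both hairpins (2.23-fold, adjusted p = 0.477), with sh52 arrays at 11.33 and 11.91, sh50 arrays at 10.79 and 10.96, and shGFP arrays at 9.51 and 10.67. HLA-DPA1, another class II alpha chain, read 8.73 and 9.40 in sh50 cells, 10.58 and 9.81 in sh52 cells, and 8.95 and 8.74 in shGFP cells. It differed by 0.79 with both hairpins (adjusted p = 0.525) and by 1.35 with sh52 (adjusted p = 0.501).

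Of the helpers that fold and load class I molecules in the endoplasmic reticulum, 8 of 10 stood higher and 2 lower with both hairpins, by a median of 0.21, and 4 had all hairpin arrays above the controls, beside 8.98% of transcripts. Without sh50 replicate 2 that median was 0.08. The chaperone CALR, a partner of TAPBP in the loading complex, read 17.47 and 17.51 in sh50 cells, 17.64 and 17.60 in sh52 cells, and 17.25 and 17.08 in shGFP cells, a difference of 0.39 ± 0.13 (log2, SE; adjusted p = 0.501). HSPA5 differed by 0.59 (adjusted p = 0.515) and PDIA3 by 0.37 (adjusted p = 0.631). HSPA5 is a general chaperone raised by stress of the endoplasmic reticulum, and CALR and PDIA3 fold many glycoproteins besides class I.

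Proteasome activators and assembly factors split, with 4 of 10 higher and 6 lower and a median of -0.18. PSME2, a subunit of the interferon-inducible cap PA28, stood higher on all 4 hairpin arrays (10.66 and 10.44 in sh50 cells, 10.36 and 10.99 in sh52 cells, 10.29 and 10.07 in shGFP cells), by 0.43 with both hairpins (adjusted p = 0.615). PSME4, another proteasome cap, differed by -0.39 and the assembly chaperone PSMG1 by -0.45. Other peptidases that make or destroy class I peptides gave 3 of 6 higher and 3 lower with a median of 0.0080. THOP1 differed by -0.44 with both hairpins, and all 4 hairpin arrays lay below both controls, as for 3424 of 33764 transcripts. TPP2 differed by -0.24 (0.02 with sh50 and -0.51 with sh52) and NPEPPS by 0.44, and both overlapped the controls. None passed the adjusted test.

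Regulators and interferon receptors were nearly balanced, with 10 of 19 higher and 9 lower with both hairpins and a median of 0.0014. Among them were JAK1, a kinase shared by the interferon receptors, and IFNGR1, the ligand-binding chain of the interferon gamma receptor. JAK1 read 13.65 and 13.31 in sh50 cells, 13.24 and 13.06 in sh52 cells, and 12.46 and 12.74 in shGFP cells, a difference of 0.72 ± 0.17 (log2, SE; 1.64-fold; adjusted p = 0.469). IFNGR1 read 7.75 and 7.98 in sh50 cells, 8.26 and 7.90 in sh52 cells, and 7.51 and 7.46 in shGFP cells, a difference of 0.49 ± 0.17 (adjusted p = 0.501).

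IRF1 and CIITA, the regulators usually placed upstream of class I and class II genes, are given for that role. IRF1 differed from shGFP by 0.29 with sh52, where both arrays lay above both controls (adjusted p = 0.736). With sh50 it differed by 0.11 and overlapped them. CIITA differed by 0.01 with sh52 and by -0.47 with sh50 (adjusted p of 0.991 and 0.643). Its sh50 arrays lay below both controls, and its sh52 arrays overlapped them. Between the hairpins CIITA stood 0.48 higher with sh52 (adjusted p = 0.799). Both its sh52 arrays lay above both sh50 arrays, as for 17.3% of transcripts. JAK2 differed by 0.59 with both hairpins, with arrays that overlapped the controls (adjusted p = 0.735).

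Blood and immune cells express class I and class II genes strongly, so their markers were read on the same arrays. Of 13 markers 12 were measured, and 8 of these fell below the filter. Their levels ran from 2.85 to 5.47, and the median over the 12 lay between 3.52 and 3.71 on the 6 arrays, below the array medians. Of the 4 tested, CSF1R differed by 0.18, TYROBP by -0.10 and CORO1A by -0.08 with both hairpins. With sh52, CSF1R differed by 0.38 (adjusted p = 0.61), with both arrays, at 5.47 and 5.22, above the other 4, while TYROBP differed by -0.12 and CORO1A by -0.05; the part of CSF1R-expressing cells in the sh52 differences was not tested. In RNA of a whole culture, more cells that express a gene and more RNA of it per cell cannot be told apart. Among 10 markers of glioblastoma lines, SOX2 and OLIG2 were below the filter, and of the other 8, 5 stood higher and 3 lower with both hairpins, with a median of 0.17. CHI3L1, FN1 and SPARC differed by 3.05, 1.12 and 1.05, while VIM differed by -0.32, CD44 by -0.22 and NES by -0.08; the part of such differences in those of the members was not tested.

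Replicate 1 and replicate 2 were compared within the groups, with 3 arrays on each side. NLRC5 and TAP2 were lower on all 3 replicate 1 arrays than on all 3 replicate 2 arrays, 2 of 10 members beside 8.42% of all transcripts. For NLRC5, replicate 1 minus replicate 2 was -0.32 in sh50 cells, -0.51 in sh52 cells and -0.31 in shGFP cells. Averaged over groups, replicate 1 minus replicate 2 was -0.38 ± 0.13 (log2, SE), with an interval of -0.72 to -0.04 (adjusted p = 0.443). For TAP2 it was -0.34, with an interval of -0.81 to 0.13 (adjusted p = 0.621).

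Over all 10 members, 2 stood higher and 8 lower on replicate 1, with a median of -0.08, beside 41.6% of transcripts higher and a median of -0.04 over all. NLRC5 alone had an unadjusted p under 0.05, 1 of 10 beside 6.34% of transcripts that were lower on replicate 1. The adjusted test called 9 transcripts, 0.0267%, and no member. SAT1 stood 1.496 higher on replicate 1 (adjusted p = 0.424), mostly through the array labelled sh52 replicate 1. The heavy chains differed by a median of 0.39, with 5 of 5 higher on replicate 1 on average over the groups. The gap was widest in sh52 cells, between 0.80 and 1.01, and in sh50 cells 4 of 5 were lower on replicate 1. The estimated gap between replicate numbers was wider than that between hairpins and control for NLRC5, TAP2 and ERAP1, and narrower for the other 7 members; the difference between these gaps was not tested.

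**Figure D4:**
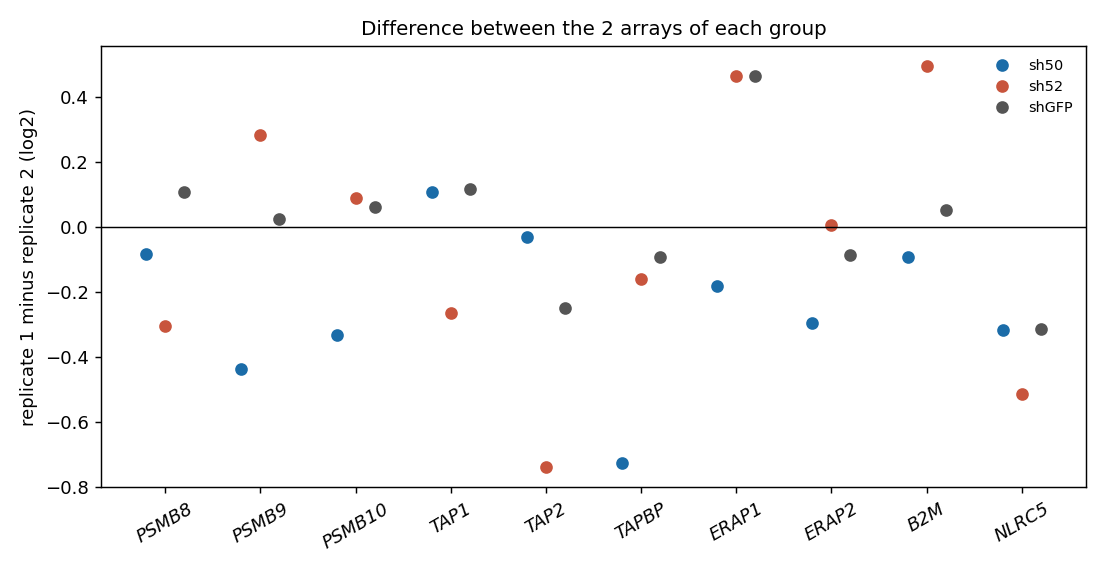
Replicate 1 minus replicate 2 (log2, vertical axis) for each of the 10 genes (horizontal axis), with 1 point for each of sh50, sh52 and shGFP. All 3 points of NLRC5 lie below 0, at -0.32, -0.51 and -0.31, and so do those of TAP2 and TAPBP, while the other 7 genes have points on both sides.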

How the data were processed

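RNA of 6 U87MG samples was read on human transcriptome arrays, and the precision is limited by their number. The deposited values, taken here as log2, had been normalized and summarised by the authors through RMA (core level, Expression Console), per the labels. The submitters' processing notes also name Transcriptome Analysis Console. No version, logarithm base, background setting or annotation build was found in the sources used here. Base 2 is assumed.

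Of 70523 rows, the 67528 transcript clusters were used, and the 33764 with a mean at or above the median of 3.98 were tested. Platform annotation gave 1 symbol to 23781 clusters, several to 1543 and none to 42204; symbols were updated through RefSeq's GRCh38.p14 gene table. A gene is its brightest single-symbol cluster.

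Group means were fitted over all arrays with limma 3.58.1 in R 4.3.3 (3 residual and 2.67 prior degrees of freedom) and contrasts tested two-sided with Benjamini-Hochberg adjustment over all tested transcripts at 0.05. Replicate 1 against 2 was fitted with the group as a covariate. The fit was also run on simulated data with independent noise and planted differences of at least 1 (log2). Differences of the members' size are smaller and were not simulated. Separate infections are not stated for the replicates, so a p-value covers no more than the spread among these samples, possibly a technical one. The members, the 10 gene lists and the tests were chosen with earlier results of these data known. Named genes were SAT1, all 10 members and, from each other list, the 3 with the widest difference with both hairpins, plus any list member past 1 (log2) whose arrays did not overlap; others are marked where named. Alternatives were another normalization, centring, filter, row choice, moderation, the replicate block and leaving out each array.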

Additional observations from a re-analysis of the deposited data

Results flagged for a closer look

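PSME4, the proteasome cap also known as PA200, lay above both shGFP arrays on both sh50 arrays and below both on both sh52 arrays. It read 11.79 and 11.70 (log2, replicate 1 then 2) in sh50 cells, 10.24 and 10.87 in sh52 cells, and 11.58 and 11.50 in shGFP cells. The difference from shGFP was 0.20 ± 0.24 with sh50 and -0.98 ± 0.24 with sh52 (SE of the fit). The difference between the hairpins was -1.19 ± 0.24 (log2, SE), with a 95% interval of -1.79 to -0.59 (limma, adjusted p = 0.661), so it did not pass the adjusted test.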

How the results depend on the processing

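No member passed the adjusted test under any setting run. With the replicate block, the lowest adjusted p of a member with both hairpins was 0.346 (ERAP2; difference 0.56), and the block changed no call. Whether the replicate numbers pair the samples is not settled, and they are not treated as pairs: deviations of same-numbered arrays correlated by 0.052 (sh50 and sh52), 0.387 (sh50 and shGFP) and 0.345 (sh52 and shGFP). Apart from left-out arrays, 3 differences turned: PSMB8 with sh50 was -0.0090 with the mean of all its rows, and between replicates TAP1 was 0.046 and PSMB9 0.0046 after quantile normalization. The filter at the 75th percentile, 5.91 (log2), removed PSMB9, PSMB10 and NLRC5, so it gave no value for them. Their means were 5.52, 5.39 and 5.40.

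Leaving out each array in turn, with a lone array assumed to vary like the other groups, gave these ranges for differences that changed sign; none was called. With both hairpins against shGFP they were -0.24 to 0.13 for TAP2, -0.021 to 0.29 for NLRC5 and -0.17 to 0.29 for ERAP1. With sh50 they were -0.064 to 0.19 for TAP2, -0.028 to 0.080 for PSMB8, -0.43 to 0.0029 for PSMB9, -0.14 to 0.19 for PSMB10, -0.11 to 0.21 for NLRC5 and -0.36 to 0.10 for ERAP1. With sh52 they were -0.013 to 0.25 for TAP1, -0.55 to 0.19 for TAP2 and -0.038 to 0.48 for NLRC5. For sh52 against sh50 they were -0.022 to 0.47 for B2M, -0.14 to 0.12 for TAP1, -0.61 to 0.13 for TAP2, -0.67 to 0.055 for TAPBP, -0.016 to 0.32 for PSMB10 and -0.090 to 0.42 for NLRC5. For replicate 1 against 2 they were -0.020 to 0.27 for B2M, -0.079 to 0.11 for TAP1, -0.19 to 0.013 for PSMB8, -0.21 to 0.15 for PSMB9 and -0.14 to 0.075 for PSMB10.

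With each array left out, the members' median ranged from 0.10 to 0.23 for both hairpins, from 0.015 to 0.13 for sh50, from 0.33 to 0.47 for sh52 against shGFP and from 0.058 to 0.32 for sh52 against sh50. Transcripts called ranged from 0 to 1 in both of these, the 1 arising without sh52 replicate 2, and from 0 to 18 between replicates. List values and shares of all transcripts without single arrays were added after the data were seen. The number of arrays limits every comparison.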
